A study of Mus musculus with 12 samples.

Results

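Transcripts of 10 effector cytokines and chemokines were examined in activated mouse CD8+ T cells from Dock8 KO or wild-type mice that were held in a collagen gel or in plain media. The genes were Ifng, Tnf, Osm, Csf1, Csf2, Il2, Ccl3, Ccl4, Ccl5 and Xcl1, taken as the rows that bear these symbols among the 55291 gene symbols of the deposited count table. All 10 were among the 19010 symbols that passed the filter on low counts. The cells came from lymph node and spleen and were activated for 3 days before a further 24 h of culture, and RNA of the whole cell population was sequenced. KO gel cells were Dock8 KO cells recovered from bovine collagen at 2 mg/mL, and KO media cells were Dock8 KO cells kept without gel. WT gel and WT media cells were wild-type cells in the same pair of cultures. Each of the 4 groups held 3 libraries, from mice given as n = 3 per group. Not given in the sources used here were the strain, age and knockout allele of the mice and whether gel and media libraries of a genotype share mice, so p-values measure the spread between these libraries. DOCK8 activates Cdc42, a small GTPase that steers actin assembly, and the series concerns how it preserves the shape and the nucleus of migrating T cells.

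Activated CD8+ T cells act on their surroundings through secreted proteins. Antigen receptor signalling brings NFAT, AP-1 and NF-κB factors to cytokine genes, and the resulting messages are often short-lived because AU-rich stretches near their 3′ ends recruit decay factors. Interferon-γ (Ifng) raises antigen presentation and antimicrobial GTPases in target cells. Tumour necrosis factor (Tnf) is made as a membrane protein and shed by a protease, oncostatin M (Osm) is a cytokine of the interleukin-6 family, and interleukin-2 (Il2) drives T cell growth. Csf1 and Csf2 encode growth factors of macrophages and other myeloid cells. The products of Ccl3, Ccl4 and Ccl5 attract T cells and myeloid cells, and XCL1, the product of Xcl1, attracts dendritic cells that carry XCR1.

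The libraries held 28483064 to 61390702 counts. Dock8 stood at 109 to 168 CPM (counts per 1000000 of the scaled library total) in the 6 KO libraries and at 362 to 450 CPM in the 6 WT libraries. The 10 markers of CD8 T cells summed to 3283 to 3343 CPM in KO gel, 3315 to 3679 CPM in KO media, 3609 to 3881 CPM in WT gel and 3519 to 3875 CPM in WT media. Markers of CD4 and regulatory T cells, which can make the same cytokines, summed to 180 to 205 CPM in KO gel, 132 to 145 CPM in KO media, 181 to 196 CPM in WT gel and 169 to 172 CPM in WT media. Ikzf2 carried most of that sum, at 140 to 167 CPM in KO gel and 94.7 to 109 CPM in KO media. It stood at 143 to 164 CPM in WT gel and 133 to 144 CPM in WT media. In KO gel and KO media, Zbtb7b stood at 26.9 to 31.1 and 29.8 to 32.6 CPM, and Foxp3 at 0.300 to 0.633 and 0.0978 to 0.755 CPM. NK cell markers summed to 7.80 to 10.2 CPM over all 12 libraries. The 6 neutrophil markers summed to 0.150 to 0.343 CPM in KO gel and 0.0629 to 0.0769 CPM in KO media. Their sum was 0.0554 to 0.151 CPM in WT gel and 0 to 0.0854 CPM in WT media, with Retnlg and S100a9 at 0 in all libraries. The 3 KO gel libraries stood apart: at an equal depth of 28483064 counts they showed 28362 to 30104 genes, against 24336 to 25142 in the other 9. Their sum over 9 mast cell and basophil markers was 11.3 to 18.7 CPM, against 5.98 to 9.76 in KO media, 5.72 to 8.31 in WT gel and 4.38 to 7.68 in WT media. Loci that collect ribosomal RNA reads held 18.6% of the counts of WT gel library 2 and 12.3% of KO media library 3, against 3.84 to 9.36% elsewhere.

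Of the upstream regions, those of 3 genes are printed because these members changed in opposite directions in KO gel against KO media, Ifng and Csf1 upward and Tnf downward. Each is the run of 200 bases before the RefSeq gene start on build GRCm38.p6, read along the gene's strand. A RefSeq entry was matched for 7 of the 10 genes, and Osm, Ccl4 and Ccl5 were not among them. Capitals mark GGAAA, the core that NFAT proteins bind, a form of the κB site that opens with GGG, goes on with any 3 bases and closes with TTCC, and TATAAA, the TATA box, each searched on both strands. In Csf1 the κB form overlaps a GGAAA.
Ifng, chr10:118440846-118441045, plus strand: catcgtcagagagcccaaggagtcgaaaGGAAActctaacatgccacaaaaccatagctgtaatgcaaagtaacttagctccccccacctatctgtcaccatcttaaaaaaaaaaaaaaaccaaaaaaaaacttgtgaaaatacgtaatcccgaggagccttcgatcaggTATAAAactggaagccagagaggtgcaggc
Csf1, chr3:107760470-107760669, minus strand: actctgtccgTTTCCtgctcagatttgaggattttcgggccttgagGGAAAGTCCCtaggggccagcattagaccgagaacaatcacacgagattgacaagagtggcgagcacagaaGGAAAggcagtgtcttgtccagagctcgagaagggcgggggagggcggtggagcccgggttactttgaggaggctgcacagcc
Tnf, chr17:35202008-35202207, minus strand: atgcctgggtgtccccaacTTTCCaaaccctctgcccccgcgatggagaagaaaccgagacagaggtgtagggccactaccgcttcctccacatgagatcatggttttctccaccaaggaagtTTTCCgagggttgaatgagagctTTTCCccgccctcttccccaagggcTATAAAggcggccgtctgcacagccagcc

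GGAAA occurred 1 time upstream of Ifng and 3 times upstream of both Csf1 and Tnf, and 47.71% of 32497 windows of this length hold it. The κB form occurred upstream of Csf1 and of none of the other 6 matched members, against 3.911% of all windows. TATAAA occurred upstream of Ifng, Tnf and Il2, against 9.887% of all windows. TGANTCA, the AP-1 site, occurred in none of the 7 windows and in 5.471% of all. For Csf2 the window (chr11:54249900-54250099) stops short of the GENCODE start at 54249667, so the bases next to that start were not searched. These matches describe letters in short windows and are no evidence of binding.

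The members also differ in the AU-rich nonamer TTATTTATT, at which proteins such as tristetraprolin (the product of Zfp36) bind and speed decay. The longest annotated 3′ untranslated region of Tnf holds it 5 times, that of Csf2 4 times and that of Il2 1 time, and the other 7 members hold none. Of 21020 protein-coding genes, 7.659% hold it and 0.6708% hold it 3 or more times. The densest stretch of each of the first 2 is shown, with nonamers in capitals (GRCm38, GENCODE M21 transcripts).
Tnf, chr17:35199678-35199707, minus strand: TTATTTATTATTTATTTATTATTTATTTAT
Csf2, chr11:54247327-54247356, minus strand: tttaaatatTTATTTATTTATTTATTTATT

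Between KO gel and KO media, 4 of the 10 transcripts changed: Ifng and Csf1 rose, and Tnf and Osm fell. The share called over all genes tested was 20.8%, and 6 members had libraries that did not overlap between these groups, against 47.4% of all genes. Between WT gel and WT media only Osm passed the threshold among the 10, and it fell (0.0368% of all genes were called, 0.0316% higher and 0.00526% lower). With the replicate number as a block, since same-numbered WT libraries deviated together, Tnf was called as well and the calls over all genes came to 171, against 7 without the block. Set against WT gel, KO gel held more Ifng and Csf1, and the other 8 were not called (14.8% of all genes were, 7.12% higher and 7.71% lower). In KO media against WT media 0 of 10 were called by edgeR's quasi-likelihood F test, by limma-voom or by DESeq2, and 1 had an unadjusted p under 0.05 (0.189% of all genes were called, 0.0263% higher and 0.163% lower). The difference between the gel responses of the genotypes was called for Csf1 alone, upward (3.35% of all genes, 1.89% upward and 1.45% downward). At an unadjusted p under 0.05, KO gel against KO media gave 5 members (36.7% of all genes) and WT gel against WT media 2 (5.43%). By the same measure KO gel against WT gel gave 4 (30.1%), KO media against WT media 1 (7.49%) and the difference of responses 3 (19.6%). Libraries did not overlap for 2 members in WT gel against WT media (9.18% of all genes), 4 in KO gel against WT gel (38.2%) and 2 in KO media against WT media (10.7%). The comparisons that involve KO gel share its 3 libraries. The median log2 fold change of the 10 was 0.0053 in KO gel against KO media and -0.17 in WT gel against WT media, and over all genes it was -0.0073 and -0.0062. RNA of whole populations cannot tell fewer cells of a type from less RNA per cell. Adjusted p-values below come from edgeR's quasi-likelihood F test with Benjamini-Hochberg adjustment over all 19010 genes unless another tool is named, and fold changes are gel over media or KO over WT.

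**Figure D1:**
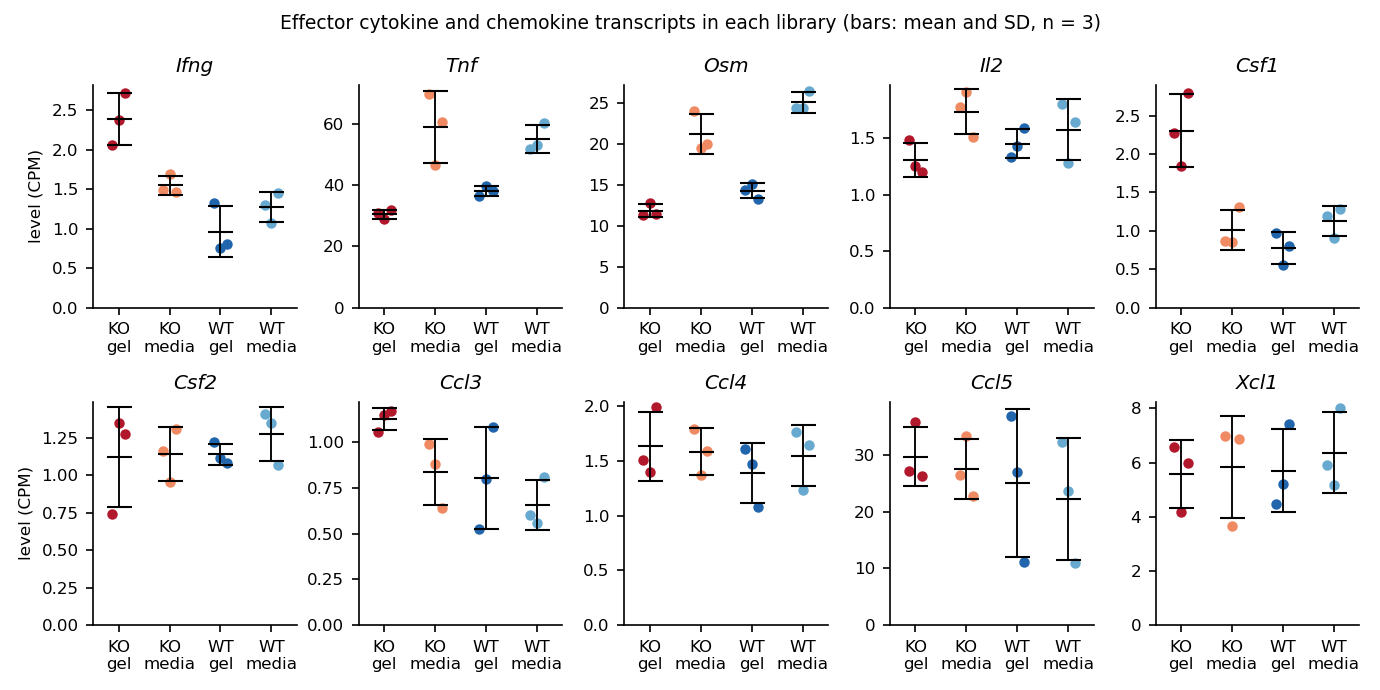
Level of each of the 10 transcripts in CPM (vertical axes, linear, from 0) in every library of KO gel, KO media, WT gel and WT media, with the group mean and SD (n = 3) as bars. Ifng and Csf1 lie highest in the 3 KO gel libraries, Tnf and Osm lie lower in both gel groups than in their media groups, and the Ccl5 libraries of WT spread from 10.9 to 37.0 CPM.

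Ifng, the gene of interferon-γ, was highest in KO gel. Its level was 2.06, 2.37 and 2.72 CPM in the KO gel libraries, against 1.49, 1.69 and 1.46 CPM in the KO media libraries. In the WT gel libraries it was 1.33, 0.756 and 0.806 CPM, against 1.29, 1.07 and 1.45 CPM in the WT media libraries. Every KO gel library lay above the other 9, and the WT gel and WT media libraries overlapped. These levels rest on 19 to 109 counts per library, the fewest in WT gel library 2.

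Ifng rose 1.54-fold in KO gel against KO media (log2 0.62, SE 0.20, adjusted p 0.0410). That call was lost without any 1 of the 6 KO libraries (adjusted p 0.0623 to 0.148). WT gel over WT media gave -0.39 (SE 0.23, adjusted p 0.969). Ifng was 2.44-fold higher in KO gel than in WT gel (1.29, SE 0.22, adjusted p 0.00171), and it was called under all 20 alternatives for this comparison (adjusted p up to 0.0181). The gel response differed between the genotypes by 1.01 (SE 0.30), which was not called (adjusted p 0.0850). It was called without WT gel library 1 (adjusted p 0.0372) and with the replicate number as a block (adjusted p 0.0167). KO media over WT media gave 0.28 (SE 0.21, adjusted p 0.776). Among the 1523 genes within 0.5 of its mean log2 level, 16.6% were called higher and 1.97% lower in KO gel against KO media. In KO gel against WT gel 9.32% of these were higher and 1.84% lower. The difference between the responses was called upward for 3.55% of these and downward for 0. Ifng (chromosome 10, 118441046 to 118445892) shares 336 exon bases with the gene model Gm49751 on the same strand. Its counts could depend on how reads in these bases were assigned, which is not given in the sources used here. Of 6 tested markers of CD4 and regulatory T cells, which can make interferon-γ, 4 rose in KO gel against KO media. The other 2 were not called, and 11.1% of all genes rose there. In KO gel against WT gel 1 of the 6 was called higher and 0 lower (7.12% and 7.71% of all genes). Cd4 itself stood at 3.85 to 7.16 CPM in KO gel, 2.63 to 3.72 CPM in KO media, 1.96 to 2.77 CPM in WT gel and 2.01 to 3.78 CPM in WT media. The larger number of genes seen and the higher mast cell and basophil markers of the KO gel libraries moved with this result. Of the 6 CD4 and regulatory T cell markers, 4 did so against KO media and 1 against WT gel. The part of all of these in the Ifng result was not tested.

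Some of the genes that interferon-γ is known to raise moved apart between the genotypes. Of 22 tested genes of this list (24 listed), 6 rose and 1 fell in KO gel against KO media, where 11.1% of all genes rose and 9.74% fell. For Tap1, Psmb8, Psmb9 and Psmb10 every KO gel library lay below every KO media library (47.4% of all genes did not overlap, either direction). Psmb9 stood at 99.4 to 105 CPM in KO gel and 116 to 122 CPM in KO media. It stood at 103 to 119 CPM in WT gel and 122 to 133 CPM in WT media. For WT gel against WT media 0 were called by edgeR. An unadjusted p under 0.05 was found for 16 (5.43% of all genes), and all 16 had negative fold changes. DESeq2 called 5 lower there (25 lower over all genes), limma-voom 0 (1) and the fit with the replicate number as a block 3 (75). Without the filter on low counts edgeR called 12 lower (122 over all genes), and with total counts as the scaling 2 (8). KO gel exceeded WT gel in 12 of the 22 and was lower in 1 (9 to 15 higher without 1 library). Of all genes 7.12% were higher and 7.71% lower there. The gel response was higher in KO than in WT for 9 of the 22 and lower for 0 (1.89% and 1.45% of all genes), and 13 were not called. The median of this difference was 0.66, against 2.3e-05 over all genes. Leaving out 1 library gave 4 to 15 genes, with 15 without WT media library 1, 8 without WT media library 3 and 4 to 6 without any other, and leaving out WT gel library 2 and KO media library 3 together gave 0, while total counts as the scaling gave 14 and DESeq2 15. The list was compiled with earlier results of these data known, and type I interferons raise many of the same genes.

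Ciita encodes the transactivator of MHC class II genes. It stood at 1.21, 1.75 and 1.47 CPM in KO gel, against 0.472, 0.685 and 0.513 CPM in KO media. In WT gel it stood at 0.277, 0.279 and 0.353 CPM, against 0.300, 0.557 and 0.683 CPM in WT media. All KO gel libraries exceeded the other 9, and WT gel overlapped WT media. The fold change was 1.42 (SE 0.27) in KO and -0.72 (SE 0.35, adjusted p 0.901) in WT, and the difference of 2.15 (SE 0.44) had an adjusted p of 0.0204. It was lost without KO gel library 2, KO media library 1, WT gel library 2 or WT media library 2 (adjusted p 0.0503 to 0.0606).

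Cd274, which encodes the inhibitory ligand PD-L1, averaged 23.5 ± 0.88 CPM in KO gel and 16.4 ± 0.32 CPM in KO media (SD, n = 3 each). It averaged 14.1 ± 0.77 CPM in WT gel and 18.1 ± 3.49 CPM in WT media, where library 3 stood highest at 22.1 CPM. The gel responses differed by 0.88 (SE 0.15, adjusted p 0.0112). Gbp5, a guanylate-binding protein gene, differed by 0.71 (SE 0.12, adjusted p 0.0106), and Icam1, an adhesion molecule gene, by 0.53 (SE 0.12, adjusted p 0.0288). Gbp5 stood at 33.0 to 34.2 CPM in KO gel and 25.7 to 28.6 CPM in KO media. It stood at 20.6 to 23.3 CPM in WT gel and 25.7 to 32.7 CPM in WT media. Icam1 stood at 53.9 to 57.6 and 38.2 to 44.8 CPM in the KO groups, and at 40.3 to 45.2 and 43.0 to 52.4 CPM in the WT groups. WT media library 3 was the highest of its group for both, and without it the differences were 0.60 and 0.44. The call of Icam1 was lost without any 1 of 9 libraries, KO media library 1, WT gel library 3 and WT media library 1 being the exceptions (adjusted p up to 0.0801). Cxcl10, the gene of a chemokine that attracts T cells, rose by 2.15 in KO gel against KO media (SE 0.33, adjusted p 0.000608), and its difference between the genotypes was not called (1.89, adjusted p 0.0522).

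**Figure D2:**
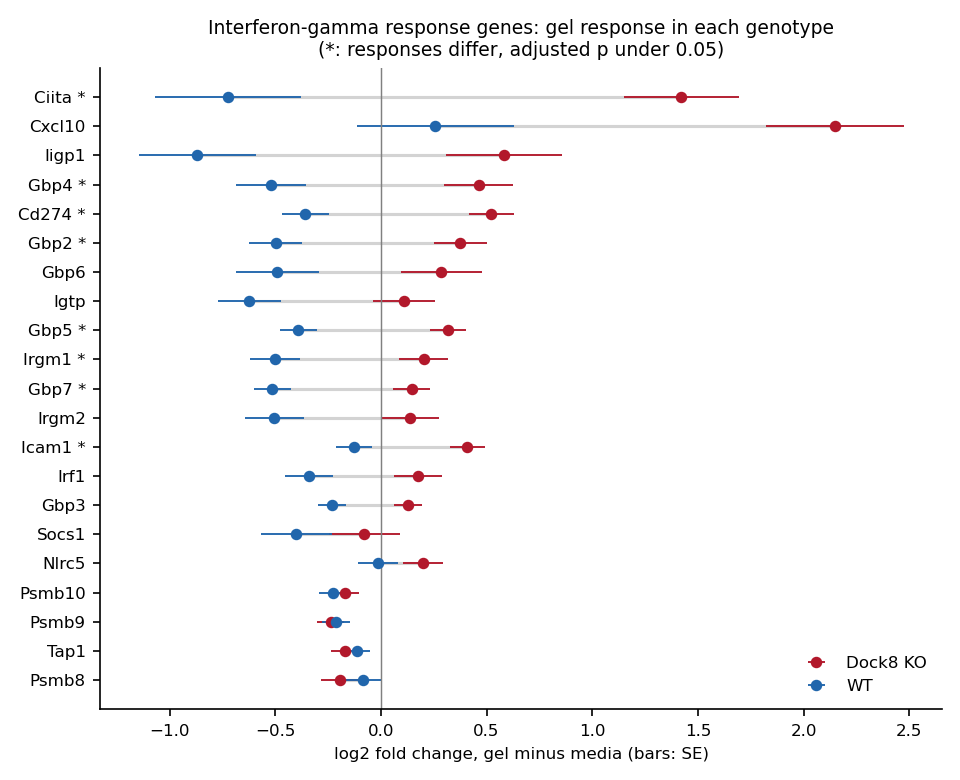
Log2 fold change of gel over media (horizontal axis) for 21 of the 22 tested interferon-γ response genes, with SE bars, in Dock8 KO (red) and WT (blue) cells; an asterisk marks a difference between the genotypes with an adjusted p under 0.05. The KO point lies right of the WT point for Ciita (1.42 and -0.72) and for Cxcl10 (2.15 and 0.26), and 8 of the 21 carry an asterisk.

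Tnf and Osm, 2 of the more abundant members, were lower in gel. The level of Tnf (chromosome 17, 35199381 to 35202007, minus strand) was 30.8, 28.8 and 31.8 CPM in KO gel, against 69.8, 46.4 and 60.5 CPM in KO media. In WT gel it was 36.5, 39.5 and 38.0 CPM, against 51.6, 52.9 and 60.2 CPM in WT media. Neither pair of groups overlapped, and the KO gel libraries also lay below all WT gel libraries.

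Tnf fell to 51.6% of its KO media level in KO gel (log2 -0.95, SE 0.12, adjusted p 0.000145). WT gel over WT media gave -0.53 (SE 0.12). This missed the threshold over all genes (unadjusted p 0.000392, adjusted p 0.315), passed it with the replicate number as a block (adjusted p 0.00566) and with DESeq2 (adjusted p 0.0142), and passed it without the filter on low counts and without KO media library 2 (adjusted p 0.0327). The responses of the genotypes differed by -0.42 (SE 0.16, adjusted p 0.169). This difference passed without the filter on low counts (adjusted p 0.00908), with the block (adjusted p 0.0202) and without KO media library 2 (adjusted p 0.0269). KO gel against WT gel gave -0.32 (SE 0.12, adjusted p 0.0796). It passed when only these groups were fitted, without the block (adjusted p 0.0105) or with it (adjusted p 0.0358). It also passed without the filter on low counts (adjusted p 0.00182), and without KO media library 1 or KO media library 2 (adjusted p 0.0386 and 0.0153). KO media over WT media gave 0.10 (SE 0.11, adjusted p 0.855).

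Osm (chromosome 11, 4236420 to 4241026, plus strand) stood at 11.3, 12.7 and 11.5 CPM in KO gel, against 24.0, 19.5 and 20.0 CPM in KO media. In WT gel it stood at 14.4, 15.1 and 13.3 CPM, against 24.4, 24.3 and 26.5 CPM in WT media. The gel libraries of each genotype lay below all of its media libraries, and KO gel lay below WT gel. Osm fell by 0.84 in KO gel (SE 0.09, adjusted p 7.0e-05) and by 0.82 in WT gel (SE 0.09, adjusted p 0.00143), each against its media group. The WT call was lost when only the WT groups were fitted (adjusted p 0.0593). The responses differed by -0.026, with a 95% interval of -0.30 to 0.25. KO gel over WT gel gave -0.26 (SE 0.09, adjusted p 0.0747), which passed without KO media library 1 (adjusted p 0.0415). KO media over WT media gave -0.24 (SE 0.09, unadjusted p 0.0180, adjusted p 0.577).

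Csf1, the gene of the macrophage growth factor CSF1, (chromosome 3, 107741048 to 107760469, minus strand) had the largest rise of the 10. Its level was 2.27, 1.85 and 2.79 CPM in KO gel, against 0.865, 0.856 and 1.31 CPM in KO media. In WT gel it was 0.969, 0.557 and 0.806 CPM, against 1.20, 0.906 and 1.28 CPM in WT media. The 3 KO gel libraries stood above the other 9, and WT gel overlapped WT media. The counts ran from 14 in WT gel library 2 to 112 in KO gel library 3.

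Csf1 rose 2.30-fold in KO gel against KO media (1.20, SE 0.24, adjusted p 0.00326) and was 2.90-fold higher in KO gel than in WT gel (1.54, SE 0.25, adjusted p 0.00136). Both calls held under all 20 alternatives run (adjusted p up to 0.0221 and 0.00873). WT gel over WT media gave -0.51 (SE 0.26, adjusted p 0.943). The difference between the gel responses was 1.72 (SE 0.35, adjusted p 0.0210). It was lost without KO gel library 1 or 3, KO media library 1 or WT gel library 2 (adjusted p 0.0524 to 0.0604). Without WT gel library 2 and KO media library 3 together it was 1.76 (adjusted p 0.0665). In KO media against WT media the fold change was -0.18 (SE 0.24, adjusted p 0.888). Of the 1617 genes at a similar mean level, 15.9% were called higher and 1.61% lower in KO gel against KO media. In KO gel against WT gel 9.15% of these were higher and 1.48% lower. The difference between the responses was called upward for 3.22% of these and downward for 0.0618%, so calls at this level were mostly upward. Csf1r, the receptor of CSF1 and a macrophage marker, was listed at 0 in all KO media libraries and reached at most 0.0999 CPM in KO gel. The sum of 15 macrophage and dendritic cell markers was 37.1 to 49.2 CPM in KO gel and 40.8 to 48.9 CPM in KO media. It was 20.6 to 37.0 CPM in WT gel and 20.5 to 37.2 CPM in WT media. Itgax and Cd68 carried most of that sum, at 30.8 to 42.0 and 5.17 to 6.23 CPM in KO gel. Mrc1 stood at 0.125 to 0.225 CPM in KO gel and 0.0157 to 0.0734 CPM in KO media, and Adgre1 at 0.0528 to 0.225 CPM in KO gel and 0 to 0.0315 CPM in KO media. Of the 3 markers tested, 0 were called in KO gel against KO media by edgeR (0 at an unadjusted p under 0.05). C1qa was at 0 in every group, and the part of these cells and of the mast cell and basophil markers in the Csf1 result was not tested.

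**Figure D3:**
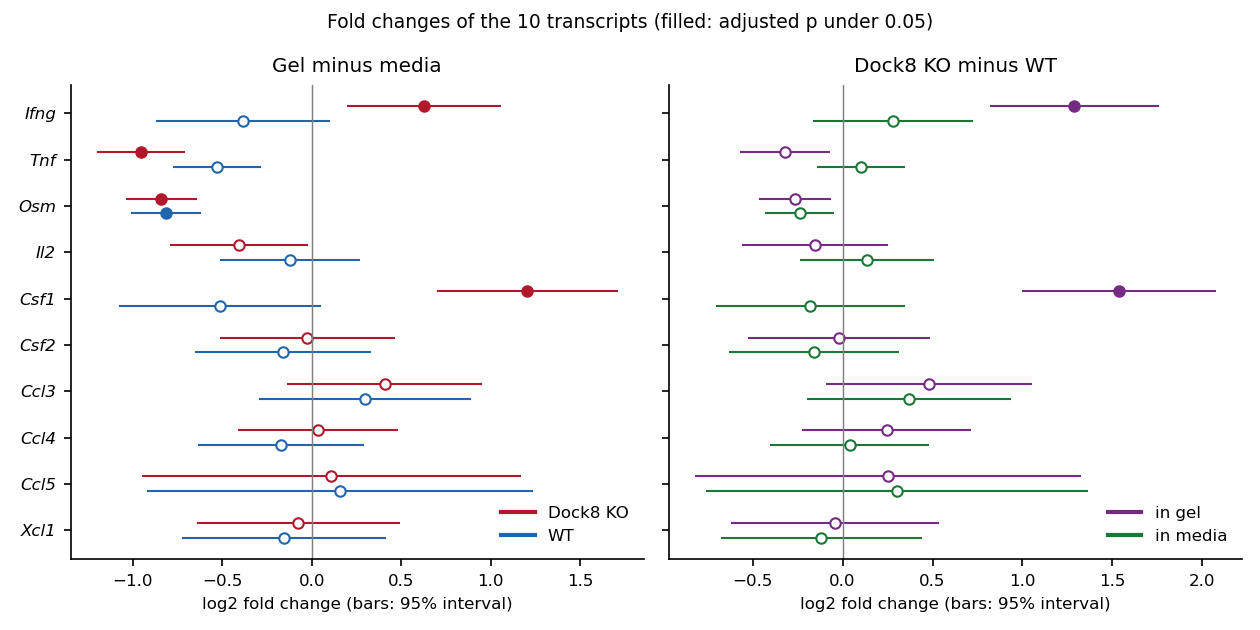
Log2 fold changes of the 10 transcripts with 95% intervals, gel over media in Dock8 KO and WT cells (left) and Dock8 KO over WT in gel and in media (right); filled points have an adjusted p under 0.05. Csf1 (1.20) and Ifng (0.62) lie right of 0 in KO gel against KO media, Tnf (-0.95) and Osm (-0.84) left, and in media no genotype difference is filled.

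Il2 and Csf2 passed the threshold in none of the comparisons. Il2 (chromosome 3, 37120523 to 37125959, minus strand) stood at 1.48, 1.25 and 1.20 CPM in KO gel, against 1.78, 1.91 and 1.51 CPM in KO media. It stood at 1.33, 1.43 and 1.59 CPM in WT gel, against 1.80, 1.28 and 1.64 CPM in WT media. The KO groups did not overlap and the WT groups did. The fold change in KO was -0.41 (SE 0.18, unadjusted p 0.0389, adjusted p 0.115), with adjusted p from 0.0760 to 0.268 over the alternatives. Csf2 (chromosome 11, 54247271 to 54249667, minus strand), which encodes GM-CSF, ranged over 0.739 to 1.35 CPM in KO gel and 0.954 to 1.31 CPM in KO media. Its range was 1.08 to 1.22 CPM in WT gel and 1.07 to 1.41 CPM in WT media, so all 4 groups overlapped. The intervals of its fold changes were wide: -0.51 to 0.46 in KO gel against KO media and -0.65 to 0.33 in WT gel against WT media. Csf2 shares 96 exon bases with the antisense gene Gm12223, and whether reads were counted by strand is not given in the sources used here.

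The 4 chemokine genes were called in no comparison. Ccl3 (chromosome 11, 83647844 to 83649355, minus strand), for the chemokine MIP-1α, averaged 1.13 ± 0.0615 CPM in KO gel and 0.837 ± 0.179 CPM in KO media (SD, n = 3 each). It averaged 0.802 ± 0.278 CPM in WT gel and 0.656 ± 0.136 CPM in WT media. The KO groups did not overlap, yet the fold change of 0.41 had a 95% interval of -0.14 to 0.95 (adjusted p 0.257). The starts of Ccl3 and of Ccl4 (chromosome 11, plus strand) have 13228 bases between them. Ccl4 ranged over 1.40 to 1.99 CPM in KO gel and 1.37 to 1.79 CPM in KO media. It ranged over 1.08 to 1.61 CPM in WT gel and 1.23 to 1.76 CPM in WT media, and its fold change was 0.035 in KO (95% interval -0.41 to 0.48) and -0.17 in WT (-0.63 to 0.29). Xcl1 (chromosome 1, 164931644 to 164935527, minus strand) ranged over 4.17 to 6.57 CPM in KO gel and 3.67 to 6.98 CPM in KO media, and over 4.49 to 7.41 CPM in WT gel and 5.16 to 8.03 CPM in WT media. Its groups overlapped throughout, with fold changes of -0.074 in KO and -0.15 in WT. Xcl1 shares 98 exon bases with Gm20743 on the opposite strand.

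Ccl5 (chromosome 11, 83525778 to 83530518, minus strand), a chemokine gene that memory and effector CD8+ T cells express strongly, varied more between libraries of a group than between groups. It stood at 27.2, 35.8 and 26.3 CPM in KO gel, against 26.5, 33.4 and 22.8 CPM in KO media. In WT gel it stood at 37.0, 27.0 and 11.1 CPM, against 32.3, 23.7 and 10.9 CPM in WT media. Libraries of the same number stood close together, and WT libraries numbered 3 were lowest in both cultures. Those 2 libraries also stood apart in Foxp3, the marker of regulatory T cells, at 4.36 CPM in gel and 4.23 CPM in media, against 0.487 to 0.883 CPM in the other 4 WT libraries. Gzmb, which encodes a cytotoxic granule protease, stood there at 235 CPM in gel and 237 CPM in media, against 387 to 611 CPM in the other 4, and the part of these markers in the Ccl5 levels was not tested. The coefficient of variation was 52.1% in WT gel and 48.3% in WT media, where counting alone would give 3.496% and 3.03%. The fold change was 0.11 in KO gel against KO media (95% interval -0.95 to 1.17) and 0.16 in WT gel against WT media (-0.92 to 1.23). With the replicate number as a block the WT value was 0.15 (SE 0.062, adjusted p 0.333), and the gel library lay above its same-numbered media library by 0.19, 0.19 and 0.029 on the log2 scale.

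**Figure D4:**
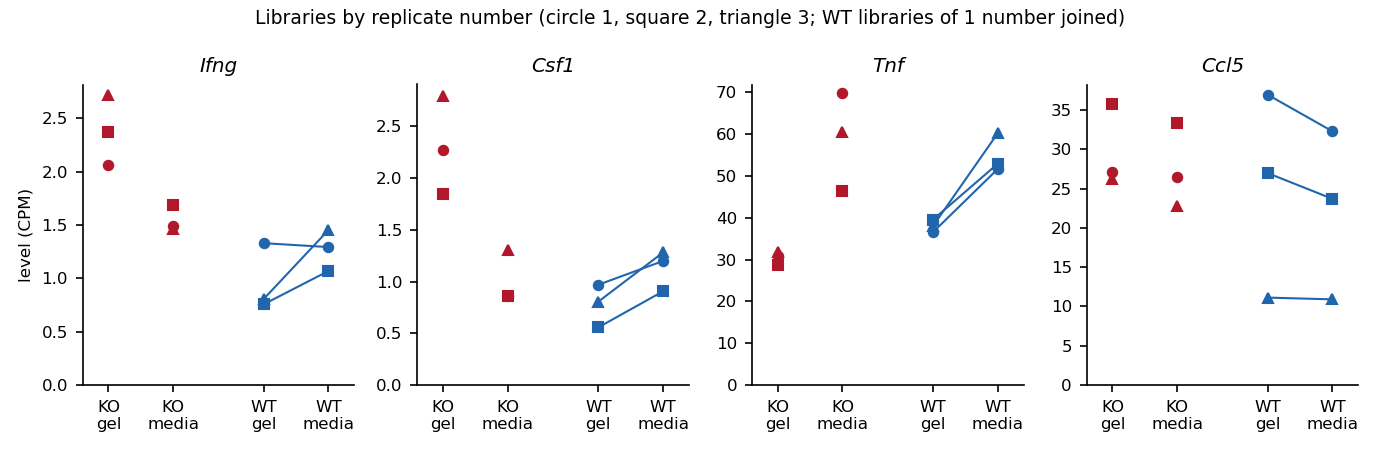
Levels of Ifng, Csf1, Tnf and Ccl5 in CPM (vertical axes, linear, from 0) by group, with a marker shape for each replicate number and a line between WT gel and WT media libraries of the same number. KO libraries are red and WT libraries blue. For Ccl5 the WT lines keep their order, from 37.0 and 32.3 CPM for number 1 to 11.1 and 10.9 CPM for number 3, while for Tnf all 3 lines end higher in media.

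Set on a scale per kilobase of exon, which allows levels of different genes to be compared, Ccl5 and Tnf led. Ccl5 averaged 31.0 CPM per kilobase in KO gel and 28.7 in KO media, and 26.1 in WT gel and 23.2 in WT media. Tnf averaged 18.6 CPM per kilobase in KO gel and 35.9 in KO media, and 23.2 in WT gel and 33.5 in WT media. Tnf thus ranked above Ccl5 in both media groups and below it in both gel groups, although in WT gel and WT media the means differed by less than the SD of Ccl5 (13.6 and 11.2 CPM per kilobase), and in KO media by about the SD of Tnf (7.18). Xcl1 had rank 3 and Osm rank 4 in all groups, at 10.7 and 5.22 CPM per kilobase in KO gel. Ccl4 had rank 5 in each group. Csf1 was last in all groups, at 0.436 ± 0.090 CPM per kilobase in KO gel and 0.191 ± 0.049 in KO media (SD, n = 3 each). Ifng had rank 6 in KO gel and rank 9 in WT gel, at 1.84 ± 0.25 and 0.744 ± 0.245 CPM per kilobase. Ifng, Csf2, Il2 and Ccl3 lay between 0.744 and 1.84 CPM per kilobase in every group.

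Receptors for the 10 products were also read. Of 13 tested receptor genes (17 listed), 3 rose and 1 fell in KO gel against KO media, where 11.1% of all genes rose and 9.74% fell. In WT gel against WT media 0 were called (2 at an unadjusted p under 0.05, against 5.43% of all genes). Csf2ra, the ligand-binding chain of the GM-CSF receptor, stood at 6.97, 5.27 and 6.53 CPM in KO gel, against 4.06, 3.99 and 4.44 CPM in KO media. It stood at 3.88, 3.98 and 4.03 CPM in WT gel, against 4.196, 4.53 and 4.63 CPM in WT media. Both pairs were separate, in opposite directions, and the difference between the responses was 0.76 (SE 0.17, adjusted p 0.0316). It was lost without any 1 of 9 libraries, KO gel library 2, WT gel library 3 and WT media library 1 being the exceptions (adjusted p 0.0591 to 0.0952). Csf2rb, the signalling chain shared with other myeloid cytokine receptors, averaged 1.79 ± 0.98 CPM in KO gel and 0.470 ± 0.346 CPM in KO media (SD, n = 3 each; adjusted p 0.0202). Its call was lost without KO gel library 2, KO media library 1 or KO media library 3 (adjusted p up to 0.0824), and when only the KO groups were fitted (adjusted p 0.0879). Cpa3, a mast cell marker, stood at 1.64, 3.89 and 2.49 CPM in the KO gel libraries, where Csf2rb stood at 0.844, 2.80 and 1.72 CPM, and the part of such cells was not tested. Osmr, the oncostatin M receptor gene, was called higher in KO gel (0.396, 0.674 and 0.648 CPM) than in KO media, where each library held 1 count (adjusted p 0.000375). Il2rb, a signalling chain of the IL-2 receptor, fell by 0.30 in KO gel (SE 0.10, adjusted p 0.0412), a call lost without any 1 of the KO gel libraries, KO media library 1 or 3, WT gel library 2 or WT media library 2 (adjusted p up to 0.118).

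Transcription factors that act on these genes moved in both directions. Of 28 tested, 4 rose and 3 fell in KO gel against KO media, where 11.1% of all genes rose and 9.74% fell. In WT gel against WT media 1 rose (0.0316% of all genes). In KO gel against WT gel 3 were higher and 5 lower (7.12% and 7.71% of all genes). Fos, an AP-1 subunit, was at 5.59, 5.92 and 5.91 CPM in KO gel, against 1.70, 1.20 and 1.69 CPM in KO media. It was at 6.51, 8.04 and 5.69 CPM in WT gel, against 1.05, 1.18 and 0.683 CPM in WT media. All gel libraries lay above all media libraries, and Fos rose by 1.91 in KO (SE 0.19, adjusted p 3.3e-05) and by 2.79 in WT (SE 0.20, adjusted p 1.3e-05). Jun, its partner, was at 55.0, 51.3 and 55.3 CPM in KO gel, against 24.4, 18.0 and 22.1 CPM in KO media. In WT gel Jun was at 25.0, 28.3 and 29.8 CPM, against 26.5, 27.7 and 42.9 CPM in WT media, where library 3 stood apart. Its gel responses differed by 1.55 (SE 0.23, adjusted p 0.00612). Egr1, an immediate early gene of receptor signalling, was at 21.0, 22.1 and 17.5 CPM in KO gel, against 79.8, 72.9 and 73.3 CPM in KO media. In WT gel it was at 60.7, 58.2 and 31.2 CPM, against 48.6, 44.5 and 32.6 CPM in WT media. Only the KO groups were separate, and the responses differed by -2.15 (SE 0.32, adjusted p 0.00880). Egr2, of the same family, differed by -1.66 (SE 0.33, adjusted p 0.0197), a call lost without KO gel library 3, KO media library 1 or WT media library 2 (adjusted p 0.0522 to 0.0558).

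Genes whose products act on cytokine messages after transcription were read next. Of 15 RNA-binding regulators, 2 rose and 1 fell in KO gel against KO media, where 11.1% of all genes rose and 9.74% fell. Khsrp, which promotes decay of AU-rich messages, averaged 216 ± 14.5 CPM in KO gel and 271 ± 12.4 CPM in KO media (SD, n = 3 each), a fall of 0.33 (SE 0.07, adjusted p 0.00398). Rc3h2, for a roquin-family repressor of cytokine messages, rose by 0.47 (SE 0.13, adjusted p 0.0186), a call lost without KO gel library 1, KO media library 1 or KO media library 3 (adjusted p 0.0616 to 0.0890). Zc3h12d, of the regnase family of endonucleases, rose by 0.18 (SE 0.06, adjusted p 0.0353), a call lost without any 1 of the KO gel libraries, KO media library 2 or 3 or WT media library 2 (adjusted p up to 0.120). Of 13 genes for processing and release, 2 rose and 3 fell in the same comparison. Rab27a, which docks secretory granules, fell by 0.32 (SE 0.06, adjusted p 0.00208), and Rhbdf2, whose product carries the TNF-shedding protease ADAM17 to the surface, rose by 0.34 (SE 0.09, adjusted p 0.0174). Adam17 itself fell by 0.17 (SE 0.05, adjusted p 0.0370) and Furin, a proprotein convertase gene, rose by 0.21 (SE 0.06, adjusted p 0.0334), and both calls were lost without any 1 of the 6 KO libraries, that of Adam17 also without WT gel library 2 (adjusted p up to 0.0892 and 0.128). The Rhbdf2 call was lost without KO gel library 3 or KO media library 2 (adjusted p 0.0869 and 0.0652). None of the genes of these 2 lists was called in WT gel against WT media by edgeR. There 1 and 2 had an unadjusted p under 0.05, against 5.43% of all genes.

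Of 49 other cytokine and chemokine genes, 20 passed the filter. Between KO gel and KO media 4 of these rose and 0 fell, and 16 were not called. Of all genes 11.1% rose and 9.74% fell there. Of the 1736 genes within 0.5 of the mean log2 level of Ccl3, 16.5% rose and 1.15% fell. WT gel against WT media gave 0 calls by edgeR (3 at an unadjusted p under 0.05, against 5.43% of all genes). Il17f, a cytokine gene of the interleukin-17 family, stood at 0.581, 0.799 and 0.449 CPM in KO gel, against 0.0472, 0.122 and 0.128 CPM in KO media. It stood at 0.222, 0.199 and 0.201 CPM in WT gel, against 0.112, 0.139 and 0.149 CPM in WT media. Il17f rose by 2.69 in KO (SE 0.38, adjusted p 0.000355), and all values lay under 1 CPM. Ccl6, a chemokine gene, rose by 1.48 (SE 0.44, adjusted p 0.0298), and Il15, a growth factor gene for memory CD8+ T cells and NK cells, by 1.30 (SE 0.36, adjusted p 0.0204). These 2 were also under 1 CPM. Ccl6 stood at 0.300 to 0.581 CPM in KO gel and 0.0944 to 0.282 CPM in KO media. Il15 stood at 0.396 to 0.599 CPM in KO gel and 0.157 to 0.269 CPM in KO media. The call of each of the 2 was lost without any 1 of 4 KO libraries: KO gel 1 and 3 and KO media 1 and 2 for Ccl6 (adjusted p up to 0.138), and KO gel 2 and 3 and KO media 1 and 3 for Il15 (adjusted p up to 0.0934). The 29 genes of this list that did not pass the filter summed to 1.40 to 2.24 CPM in KO gel, against 0.346 to 1.03 CPM in the other 9 libraries. Genes below the filter held 0.0913 to 0.104% of all counts in KO gel, against 0.0437 to 0.0532% elsewhere, so low transcripts in general were read more in KO gel, and the part of this in the low members and lists was not tested.

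Genes whose pattern over the 12 libraries lay nearest to a member were sought for Tnf, Osm and Ccl5, the 3 members whose log2 CPM averaged 3 or more, among 8605 other genes. Nearness was the root mean square difference of log2 CPM centred on each gene's mean. Nearest to Tnf were Prelid2 (0.199), Coro2a (0.222) and Bcl2 (0.241), where the deviation of Tnf itself was 0.407. Nearest to Osm were Prelid2 (0.239), Bcl2 (0.242) and Lif (0.243), with 0.440 for Osm itself. Nearest to Ccl5 were Tg (0.204), Prdm1 (0.205) and Tnfrsf8 (0.221), with 0.557 for Ccl5 itself. Tnf and Osm thus had 2 of their 3 nearest genes in common. These values describe the 12 libraries and carry no test.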

How the data were processed

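RNA was measured in 12 libraries of activated CD8+ T cells, 3 for each combination of genotype and culture, from 150 ng of total RNA depleted of ribosomal RNA, per the labels' protocols. The authors deposited 1 raw count per gene symbol and library, with no normalization. Per the submitters' processing notes, featureCounts, HISAT2, Picard, SAMtools, FastQC and MultiQC were used, with GRCm38 (mm10). Not given in the sources used here were versions, annotation, strand setting and the handling of duplicate and multiply mapped reads, each of which could shift counts of genes that overlap or share sequence.

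Genes passing edgeR's filterByExpr (19010) were scaled by TMM factors and tested with edgeR's robust quasi-likelihood F test on all 4 groups (R 4.3.3, edgeR 4.0.16, limma 3.58.1, DESeq2 1.42.0). The 5 contrasts were adjusted by Benjamini-Hochberg over all genes tested, with a threshold of 0.05. SE is the absolute log2 fold change over the root of F. CPM is the count times 1000000 over the scaled total, with a prior count of 2 on the log2 scale. The procedure was tested on simulated counts. Totals of 28483064 to 61390702 make 1 count worth 0.0157 to 0.0398 CPM. Ribosomal loci were chosen after their values were seen.

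Same-numbered libraries were checked for shared deviations from group means over 9919 genes. WT gel and WT media libraries correlated at 0.79, 0.24 and 0.80 and KO media and WT media libraries at 0.21, 0.17 and 0.38. These numbers may thus mark pairs, from the data and not from the labels. KO gel libraries correlated at -0.040, 0.20 and 0.17 with KO media and at -0.45, 0.15 and 0.14 with WT gel. The main fit took no pairing in any comparison. A block on the replicate number was fitted only as an alternative, also in the comparisons with KO gel.

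Positions, exon lengths and 3′ ends came from GENCODE M21 (GRCm38), promoters from RefSeq (GRCm38.p6). The 10 members and all lists were chosen with earlier results of these data known. All members were named. From each other list, up to 4 genes by p in KO gel against KO media and up to 2 in each other contrast with a call could be named, and not every such gene is. Cell type markers, the overlapping gene models and Tap1, Psmb8, Psmb9 and Psmb10 were named outside this rule. Counts of the interferon-γ response list include 1 gene that is not reported here by itself. Alternatives were 2 other scalings, no filter, DESeq2, limma-voom, fits of only the groups compared, the replicate block, and leaving out libraries.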

Additional observations from a re-analysis of the deposited data

Results flagged for a closer look

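These results were taken up because the gel response differed between the genotypes by the interaction term of edgeR's quasi-likelihood fit (gel response in KO minus gel response in WT, log2). Among the 10 cytokine and chemokine genes this held for Csf1, with a difference of 1.72 (SE 0.35, adjusted p 0.0210). Among the other named genes, the GM-CSF receptor gene Csf2ra differed by 0.76 (SE 0.17, adjusted p 0.0316). The AP-1 gene Jun differed by 1.55 (SE 0.23, adjusted p 0.00612), Egr1 by -2.15 (SE 0.32, adjusted p 0.00880) and Egr2 by -1.66 (SE 0.33, adjusted p 0.0197). Of the interferon-γ response genes, Ciita differed by 2.15 (SE 0.44, adjusted p 0.0204), Cd274 by 0.88 (SE 0.15, adjusted p 0.0112), Icam1 by 0.53 (SE 0.12, adjusted p 0.0288) and Gbp5 by 0.71 (SE 0.12, adjusted p 0.0106). Without WT gel library 2 and KO media library 3, the libraries richest in ribosomal RNA reads, all of these calls were lost (adjusted p 0.0665 for Csf1 and 0.0537 to 0.137 for the other 8). The differences were then 1.76 for Csf1, 0.80 for Csf2ra, 1.58 for Jun, -2.06 for Egr1, -1.73 for Egr2, 2.05 for Ciita, 0.89 for Cd274, 0.51 for Icam1 and 0.79 for Gbp5. Groups of 3 libraries were not tested for outlying samples.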

How the results depend on the processing

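Over the alternatives, 912 of 990 recomputed fold changes of the 10 members kept their direction and their side of the threshold, 13 lost a call, 15 gained one and 50 changed sign, all 50 of them in fold changes that were not called. Of 992 recomputed calls of the other named genes, 138 were lost and 0 changed sign. The cause was not tested.

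The number of members called in the interaction was 1, and it was 2 without a filter, 3 with the replicate block, 0 without WT gel library 2 and KO media library 3, and 0 to 2 without 1 library. In WT gel against WT media it was 1, and it was 2 without a filter, 2 with DESeq2, 0 when only those groups were fitted, 2 with the replicate block and 1 to 2 without 1 library. KO gel against WT gel gave 2, with 2 to 4 without 1 library. KO gel against KO media gave 4, with 3 or 4 without 1 library. With the replicate block, KO gel against KO media gave 4 members, and Ifng (adjusted p 0.0167) and Tnf (adjusted p 0.0202) joined Csf1 in the interaction. The block for KO against WT was fitted on only the groups compared: KO gel against WT gel gave 3 members with it and 3 without it, Tnf being the one added (adjusted p 0.0358 and 0.0105). In every comparison the labels give the libraries no more than a number in common. In the comparisons with KO gel, not every library correlated best with its own number. Between KO media and WT media 0 members were called with the block.

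Calls over all genes numbered 3962 (KO gel against KO media), 7 (WT gel against WT media), 2819 (KO gel against WT gel), 36 (KO media against WT media) and 636 (interaction). In the same order they were 6063, 195, 4156, 435 and 1768 without a filter, and with the block 7804, 171 and 3431 for KO gel against KO media, WT gel against WT media and the interaction. Fitted on only the groups compared, KO gel against WT gel gave 2165 with the block and 3302 without it, and KO media against WT media 32 and 24. DESeq2 gave 50 for WT gel against WT media, 89 for KO media against WT media and 1149 for the interaction. Fits of only the groups compared gave 6159 for KO gel against KO media and 2 for WT gel against WT media. Without the libraries rich in ribosomal RNA the order gave 2200, 7, 1444, 19 and 30. Without 1 library the ranges were 2163 to 5510, 7 to 16, 1609 to 3893, 23 to 70 and 185 to 2011. As a scaling, total counts alone gave 15 calls in WT gel against WT media, moved the median of all genes by 0.12 in the interaction and 0.10 in KO gel against WT gel, and raised the share of calls that were higher to 69.8% (against 53.3%), 82.2% (against 48.0%) and 95.02% (against 56.6%) in KO gel against KO media, KO gel against WT gel and the interaction. The share was 46.7% (against 85.7%) in WT gel against WT media.

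Sign changes were as follows. In the interaction, Ccl3 was -0.050 without the libraries rich in ribosomal RNA, Ccl5 0.075 with total counts and 0.021 with limma-voom, and Osm 0.099 with total counts. In KO gel against KO media, Ccl4 was -0.0090 without a filter and Csf2 0.013 with total counts. Without the libraries rich in ribosomal RNA, Ccl5 was -0.0086, Csf2 0.072 and Xcl1 0.050 in that comparison. In KO gel against WT gel, Csf2 was 0.080 and Xcl1 0.058 with total counts. Without 1 library, interaction values ran from -0.14 to 0.41 for Ccl3, -0.43 to 0.36 for Ccl5, -0.020 to 0.34 for Csf2, -0.095 to 0.073 for Osm and -0.17 to 0.31 for Xcl1. Values for KO gel against KO media ran from -0.14 to 0.14 for Ccl4, -0.047 to 0.26 for Ccl5, -0.18 to 0.18 for Csf2 and -0.32 to 0.095 for Xcl1. Values for WT gel against WT media ran from -0.019 to 0.54 for Ccl3, -0.26 to 0.53 for Ccl5 and -0.40 to 0.047 for Xcl1. Values for KO gel against WT gel ran from -0.11 to 0.66 for Ccl5, -0.18 to 0.20 for Csf2 and -0.20 to 0.20 for Xcl1. Values for KO media against WT media ran from -0.096 to 0.15 for Ccl4, -0.026 to 0.68 for Ccl5, -0.039 to 0.25 for Tnf and -0.28 to 0.12 for Xcl1.

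Depth limits the 6 members under 3 CPM, whose libraries held 14 to 114 counts each. The nearest genes to Tnf, Osm and Ccl5 were the same with a prior count of 0.5.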
